A study of Ovis aries with 8 samples.

Results

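Calpain 3 (CAPN3) and calpastatin (CAST) were each read by 2 probes on the ovine array, so that these 2 genes, of 758 with a name here, account for 4 of its 15008 probes. The probes were found by the gene name and description that the array design gives them. Both genes were picked because a probe of each was lower after hypoxia on these same arrays. Their differences between the groups are therefore given as a description, without a test. All 4 probes were among the 13036 retained, that is, probes whose signal on 3 or more arrays was 1.1 times the 95th percentile of negative control spots, or higher.

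The arrays hold RNA from the whole pituitaries of 8 late-gestation fetal sheep, with anterior and posterior lobes together, 1 array per fetus, and 1 fetus from each twin pregnancy. In 4 fetuses hypoxia was produced for 30 min by nitrogen given into the maternal trachea, and the pituitary was taken 60 min after its onset. The 4 normoxic fetuses were connected in the same way without nitrogen. There were 3 males and 1 female per group, aged 129 to 132 days of gestation in hypoxia and 123 to 129 days in normoxia, and the arrays were spread evenly over 2 slides. The median spot signal of the array was 229.5 to 294.9 in hypoxia and 309.1 to 380.5 in normoxia, so that before normalization the groups were separate in brightness, with hypoxia the dimmer. The pituitary hormone transcripts POMC (mean log2 intensity 18.85 with hypoxia, 18.83 with normoxia), PRL (18.94 and 18.97) and CGA (17.74 and 17.67) were bright in both groups. The protocol text of the labels mentions hypothalamus in its account of RNA preparation, whereas the sample titles and sources give pituitary.

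Calpains are intracellular cysteine proteases that are activated by calcium and cut a limited number of proteins, many of them in the cytoskeleton. Calpain 1 and calpain 2 are present in most tissues and each work with a common small subunit, CAPNS1, whereas calpain 3 is known mainly from skeletal muscle, where it binds the giant protein titin. Calpastatin is the specific inhibitor of calpains 1 and 2, and its gene gives several transcripts through alternative promoters and splicing.

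The position of the probes on the transcripts bears on how far their readings can be expected to move together. Both CAPN3 probes were designed on 1 RefSeq transcript, NM_001009212, at bases 2996 to 3055 (probe A_70_P039502) and 3059 to 3118 (probe A_70_P039501), and are separated by 3 bases. The CAST probes were designed on different transcripts. Probe A_70_P039571 covers bases 2510 to 2569 of the RefSeq transcript NM_001009788, and probe A_70_P056216 covers bases 4478 to 4537 of FJ843091, which the array design describes as calpastatin isoform II, alternatively spliced. Whether the second transcript also holds the bases of the first probe was not analysed here, and no genome position was used. A stretch of 30 bases of each probe is shown to identify the site that each reading comes from. Capitals mark the triplets TAA, TAG and TGA. The stretch was chosen for holding these triplets in the most frames, and then for the most of them, so it is richer in them than the probe.
CAPN3 A_70_P039502, probe bases 28 to 57: gggctgctctggagTAAacTAGttcagTGA
CAPN3 A_70_P039501, probe bases 19 to 48: atcTGActcaTAAgtTAGgttgcattcTGA
CAST A_70_P039571, probe bases 7 to 36: cTAGacagtggtatttgtTGAgtctttTGA
CAST A_70_P056216, probe bases 1 to 30: caggTGAccaaaacTGAaaaccactatttc
Over their 60 bases, probes A_70_P039502 and A_70_P039571 hold such a triplet in all 3 forward frames, and the other two member probes in 2 of them. The G and C content was 45% and 35% for the CAPN3 probes (A_70_P039502 and A_70_P039501) and 36.7% and 38.3% for the CAST probes (A_70_P039571 and A_70_P056216). The longest run that a member probe shared with a probe of another gene name was 15 bases.

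CAPN3, the muscle calpain, was lower in hypoxia by both probes. On the log2 scale of normalized intensity, probe A_70_P039501 was 8.27, 7.39, 7.80 and 7.40 on hypoxia replicates 1 to 4 and 9.77, 8.76, 8.47 and 9.14 on normoxia replicates 1 to 4. The lowest normoxia array, replicate 3, and the highest hypoxia array, replicate 1, came from the only female of each group. The group means were 7.71 ± 0.42 with hypoxia and 9.04 ± 0.56 with normoxia (SD, n = 4 each), with a difference of -1.32 (SE 0.29), so that hypoxia was at 40.0% of the normoxia level. Probe A_70_P039502 was 7.31, 6.95, 7.001 and 6.85 on the hypoxia arrays and 8.38, 7.55, 7.53 and 7.95 on the normoxia arrays. Here too replicate 1 was the highest array of each group, and the groups did not overlap. Its means were 7.03 ± 0.20 and 7.85 ± 0.40 (SD, n = 4 each), a difference of -0.83 (SE 0.19), or 56.4% of the normoxia level.

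**Figure D1:**
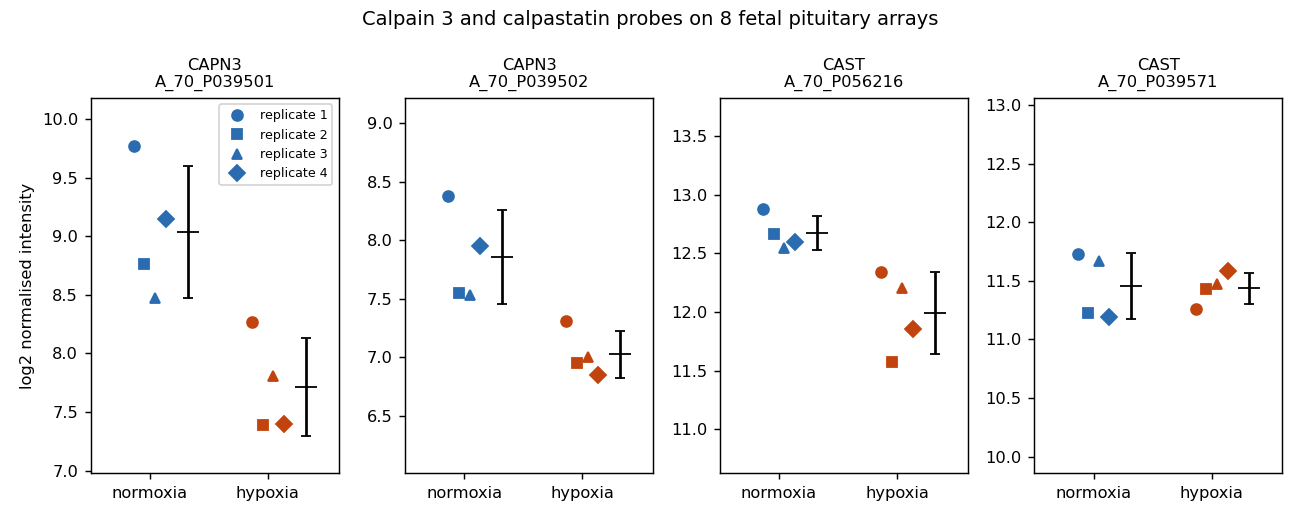
Normalized intensity (log2 scale, y axis) of the 4 CAPN3 and CAST probes on each array, by group (x axis). Each point is 1 array and its shape is the replicate number. The black mark is the group mean with 1 SD (n = 4), and every panel spans the same range of log2 units. Hypoxia lies below normoxia without overlap for both CAPN3 probes and for CAST probe A_70_P056216, and the groups overlap for CAST probe A_70_P039571.

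In the signals as scanned, before correction and normalization, probe A_70_P039501 was 135 to 305.9 in hypoxia and 404.2 to 1175 in normoxia, which is 2.76 to 5.37 and 8.25 to 23.3 times the local background. Probe A_70_P039502 was dimmer, at 93.9 to 152.5 in hypoxia and 186.7 to 411.9 in normoxia, or 2.04 to 3.14 and 3.89 to 8.58 times the background. All 32 spots of the 4 member probes were well above background by the scanner software and 0 were saturated. The variation between pixels of a member spot was 8.33% to 22.8% of its mean. The constant of 50 that is added before the logarithm shrinks differences of dim probes. With a constant of 0 the difference was -1.58 for A_70_P039501 and -1.18 for A_70_P039502, and in the deposited log2 values it was -1.59 and -1.23.

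CAST gave one reading from each of its probes. Probe A_70_P056216, on the isoform II transcript, was 12.34, 11.57, 12.21 and 11.85 on hypoxia replicates 1 to 4 and 12.88, 12.67, 12.55 and 12.59 on normoxia replicates 1 to 4. No hypoxia array reached the lowest normoxia array, and the spread was wider in hypoxia. Mean intensity was 11.99 ± 0.35 with hypoxia and 12.67 ± 0.15 with normoxia (SD, n = 4 each), which differ by -0.68 (SE 0.16), so that hypoxia was at 62.4% of the normoxia level. Probe A_70_P039571 was 11.26, 11.43, 11.47 and 11.58 on the hypoxia arrays and 11.73, 11.23, 11.67 and 11.19 on the normoxia arrays. All hypoxia arrays of this probe lay inside the range of the normoxia arrays. Its means were 11.44 ± 0.14 and 11.46 ± 0.28 (SD, n = 4 each), with a difference of -0.02 (SE 0.14). Both CAST probes were far above background, at 45.3 to 188 times the local background signal.

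Thus 3 of the 4 member probes had every hypoxia array below every normoxia array. Among all retained probes with a value on every array this held for 5.92%, and 10.2% had groups that did not overlap in either direction, which is given as background only, since the members were picked by this comparison. Ordered by the size of the difference from the most negative, A_70_P039501 was number 11, A_70_P039502 number 68, A_70_P056216 number 135 and A_70_P039571 number 6020 of 13036. In a whole pituitary, fewer cells that contain a transcript and less of it per cell cannot be told apart.

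The disagreement between the CAST probes was expressed as the log2 value of A_70_P056216 minus that of A_70_P039571 on the same array. It was 1.09, 0.14, 0.73 and 0.27 on hypoxia replicates 1 to 4 and 1.15, 1.44, 0.88 and 1.40 on normoxia replicates 1 to 4. Hypoxia replicates 2 and 4 were the low ones, while hypoxia replicate 1 was inside the normoxia range. The means were 0.56 ± 0.44 and 1.22 ± 0.26 (SD, n = 4 each), a difference of -0.66 (SE 0.25). The same measure for CAPN3, A_70_P039501 minus A_70_P039502, was 0.69 ± 0.23 with hypoxia and 1.18 ± 0.19 with normoxia (SD, n = 4 each), so that the brighter CAPN3 probe also differed by more than the dimmer one.

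The spread of the arrays within each group was not used to pick the genes and shows whether 2 probes follow each other. Each array's deviation from its group mean was correlated over the 8 arrays for 5 pairs of probes, with exact permutation within the groups. The CAPN3 probes deviated together (Pearson r = 0.96, n = 8, exact permutation test, two-sided, p = 0.00347, adjusted p = 0.0174; Spearman rho = 0.90, p = 0.0122, adjusted p = 0.0347), with r = 0.84 without normoxia replicate 1 and hypoxia replicate 1. The overlapping probes of CAPN2, which share 39 bases, did so as well (r = 0.95, n = 8, exact permutation test, two-sided, p = 0.00868, adjusted p = 0.0217; rho = 0.86, p = 0.0208, adjusted p = 0.0347), with r = 0.86 without the outermost arrays, normoxia replicates 1 and 4. The CAST probes showed no such relation (r = -0.06, n = 8, exact permutation test, two-sided, p = 0.847, adjusted p = 0.953; rho = -0.10, p = 0.764, adjusted p = 0.837; r = 0.20 without hypoxia replicates 1 and 2).

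CAPN3 probe A_70_P039501 and CAST probe A_70_P056216, which are on different genes, also deviated together (r = 0.77, n = 8, exact permutation test, two-sided, p = 0.0191, adjusted p = 0.0318; rho = 0.76, p = 0.0174, adjusted p = 0.0347). Whether this correlation differed from that of the CAST probes was not tested, and r was 0.53 without normoxia replicate 1 and hypoxia replicate 1. The permutations did not keep the slides apart. Both probes had lower values on slide 2, and the deviations of both had positive correlations with array brightness. The part of slide and brightness in the correlation of the probes was not tested. Of the other 13033 retained probes with a value, 101 had r over 0.9 with A_70_P039501 and 51 with A_70_P056216. CAPN3 probe A_70_P039501 and CAST probe A_70_P039571 had r = -0.04 (n = 8, exact permutation test, two-sided, p = 0.953, adjusted p = 0.953; rho = -0.12, p = 0.837, adjusted p = 0.837; r = -0.59 without the same arrays).

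**Figure D2:**
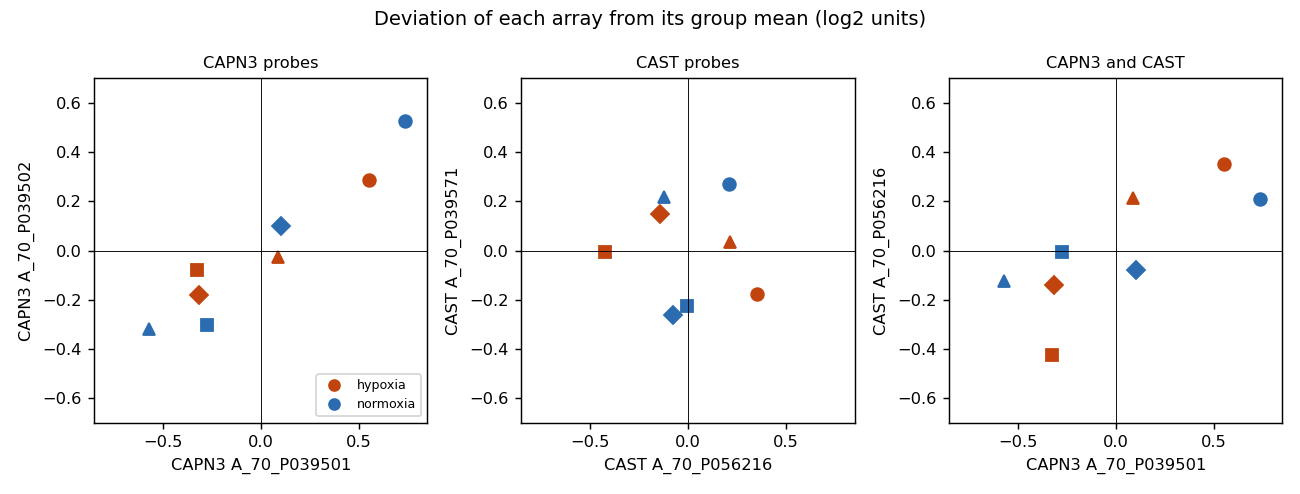
Deviation of each array from the mean of its group (log2 units on both axes) for the CAPN3 probes, the CAST probes, and the CAPN3 and CAST probes that were lower after hypoxia. Points are arrays, colour is the group and shape the replicate number (circle 1, square 2, triangle 3, diamond 4). The points follow a line for the CAPN3 pair (r = 0.96), scatter for the CAST pair (r = -0.06), and lie between for CAPN3 with CAST (r = 0.77).

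The calpains that calpastatin inhibits were examined as context. Of the 17 genes listed for the calpain system, CAPN1, CAPN2 and CAPNS1 were measured besides the members, by 6 probes. In all lists here, measured means that a retained probe could be paired with the gene name. This held for 1040 of the 13036 retained probes, so listed genes on the remaining probes were not counted. None of the 6 probes was called by limma at an unadjusted p of 0.05 or below, where 18.4% of all retained probes were called in either direction. The smallest exact permutation p of the 6 was 0.2. The 3 CAPN1 probes, for the large subunit of calpain 1, differed by -0.12 (SE 0.08, limma adjusted p = 0.506), 0.03 (SE 0.08, adjusted p = 0.845) and -0.03 (SE 0.08, adjusted p = 0.888) at bases 444, 2070 and 2089 of the transcript. Their 95% intervals reached from -0.31 at the lowest to 0.21 at the highest. The CAPN2 probes, for the large subunit of calpain 2, differed by -0.03 (SE 0.10, limma adjusted p = 0.912, 95% interval -0.25 to 0.20) and -0.11 (SE 0.10, adjusted p = 0.613, 95% interval -0.33 to 0.11). The probe of CAPNS1, the small subunit of both, differed by -0.07 (SE 0.10, limma adjusted p = 0.745, 95% interval -0.29 to 0.15).

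CAPN1 probe A_70_P041771 was 8.81, 8.71, 8.76 and 8.93 on the hypoxia arrays and 8.85, 8.73, 8.79 and 8.96 on the normoxia arrays. CAPN2 probe A_70_P039736 was 10.89, 11.09, 11.03 and 10.95 in hypoxia and 11.31, 11.04, 11.13 and 10.91 in normoxia. CAPNS1 was 11.75, 11.97, 11.97 and 12.14 in hypoxia and 12.05, 12.07, 12.09 and 11.89 in normoxia. In each of these genes the groups overlapped, as they did for all 6 probes.

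**Figure D3:**
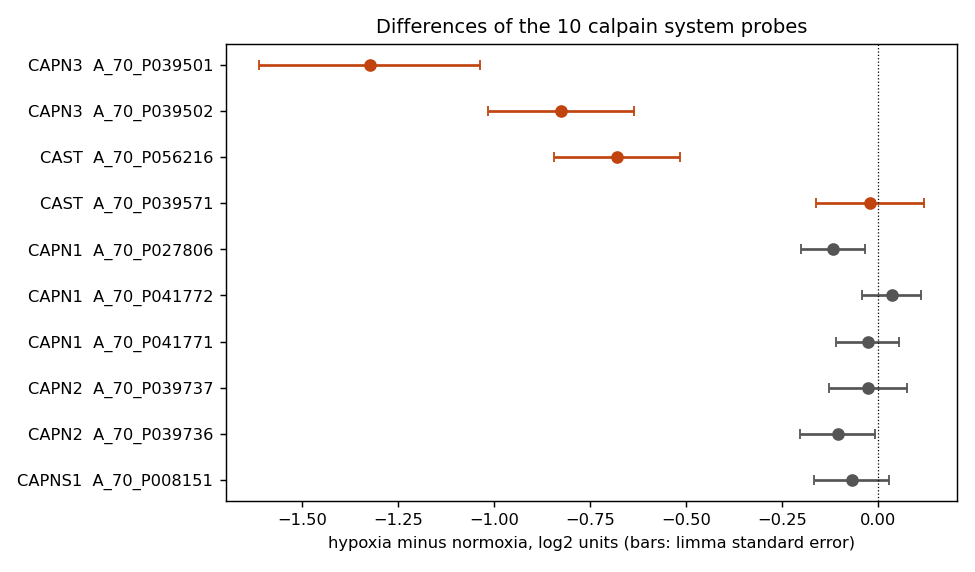
Hypoxia minus normoxia in log2 units (x axis) for the 10 probes of the calpain system (y axis). Points are the differences of group means and bars are the limma standard error (n = 4 arrays per group). CAPN3 and CAST, in red, were picked for this difference and were not tested. Both CAPN3 probes and CAST A_70_P056216 lie between -1.32 and -0.68, and the other 7 probes lie between -0.12 and 0.03.

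Among 39 listed proteins that calpains are known to cut, 7 had a measured transcript, and 1 was called higher and 0 lower by limma (median difference 0.14 log2 units). The called gene was NFKBIA, the inhibitor of NF-kappa-B, which was higher by 1.35 (SE 0.38, limma unadjusted p = 0.00587, adjusted p = 0.12). The cytoskeletal protein vimentin (VIM, 0.14, SE 0.19), the glial filament GFAP (0.18, SE 0.12) and the apoptosis protein BAX (0.04, SE 0.15) did not pass. Of 48 listed proteases and inhibitors outside the calpain system, 14 were measured, with 0 called higher and 2 lower (median difference -0.04). These were CTSS, a lysosomal cysteine protease of immune cells (-0.79, SE 0.23, limma adjusted p = 0.132), and PSMB8, a subunit of the immunoproteasome (-0.30, SE 0.13, adjusted p = 0.248). Over all retained probes 7.46% were called higher and 11.0% lower. CTSB, another lysosomal cysteine protease (-0.04, SE 0.09), and FBXO32, a ubiquitin ligase known from muscle wasting (0.15, SE 0.22), did not pass.

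Because calpain 3 is best known from skeletal muscle, markers of that tissue were read beside it. Of 36 listed muscle genes 5 were measured and 0 were called, with a median difference of 0.21 log2 units. The summed intensity of the 5 was 9580 to 13160 in hypoxia and 6841 to 13250 in normoxia, and most of it was the single probe of MYLPF, a myosin light chain of fast muscle (mean log2 intensity 13.39 with hypoxia, 13.02 with normoxia). Myoglobin (MB) differed by 0.03 (SE 0.17), the muscle transcription factor MYOD1 by 0.21 (SE 0.12) and MYLPF by 0.37 (SE 0.20), all without passing the test. The part of muscle tissue in the CAPN3 values was not tested. ACTA1, CKM, MYOG and TTN had no probe under these names. Of the 19 anterior pituitary markers 9 were measured, with 1 called higher and 0 lower (median difference 0.01). The same counts were 4 of 8, 1 and 0 for markers of the posterior lobe and glia (median 0.16). The called genes were FSHB (0.46, SE 0.19, limma adjusted p = 0.241) and OXT (0.39, SE 0.13, limma adjusted p = 0.156). Over all retained probes 7.46% were called higher and 11.0% lower, so 1 call in so short a list is not a result about the list. The only red cell marker measured of 11 was HBB (0.62, SE 0.51), not called.

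The slides were balanced between the groups. For the 3 member probes whose groups did not overlap, a negative difference within each slide was fixed, and only its size could vary. For CAPN3 A_70_P039501 hypoxia minus normoxia was -1.23 within slide 1 and -1.41 within slide 2, and for A_70_P039502 it was -0.81 and -0.85. For CAST A_70_P056216 it was -0.50 within slide 1 and -0.86 within slide 2 (interaction of hypoxia and slide, limma adjusted p = 0.697), and for A_70_P039571 it was -0.11 and 0.07. Slide itself was not used to pick the genes and could be tested with group in the model. CAST A_70_P056216 was lower on slide 2 by 0.38 log2 units (coefficient -0.38, SE 0.11, limma unadjusted p = 0.00836, adjusted p = 0.727; exact permutation p = 0.0556), and CAPN3 A_70_P039501 by 0.55 (coefficient -0.55, SE 0.24, unadjusted p = 0.0459, adjusted p = 0.949; exact permutation p = 0.111). These are 2 of the 4 member probes at an unadjusted p of 0.05 or below, against 5.19% of all probes. None passed after adjustment over all probes.

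With group in the model, 0 of the 4 member probes differed between females and males at an unadjusted limma p of 0.05 or below, against 3.14% of all probes. The coefficient was -0.01 for CAPN3 A_70_P039501 (SE 0.35) and 0.15 for CAST A_70_P056216 (SE 0.19). Between the single females of the groups CAPN3 A_70_P039501 differed by -0.20 and between the males, 3 against 3, by -1.70. The interaction of hypoxia and sex was 1.49 log2 units (SE 0.51, limma unadjusted p = 0.0218, adjusted p = 0.708), and it rests on 1 female per group, of which the hypoxic one is hypoxia replicate 1. Without hypoxia replicate 1 the difference between the groups was -1.51 for A_70_P039501, -0.92 for A_70_P039502, -0.80 for CAST A_70_P056216 and 0.04 for CAST A_70_P039571.

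Gestational age and array brightness differed between the groups. With gestational age in the model, hypoxia minus normoxia was -0.82 (SE 0.41) for CAPN3 A_70_P039501, -0.50 (SE 0.27) for A_70_P039502, -0.56 (SE 0.26) for CAST A_70_P056216 and -0.20 (SE 0.22) for A_70_P039571. The age coefficient was -0.12 per day for CAPN3 A_70_P039501 (SE 0.07, limma adjusted p = 0.962), and 0 of the 4 members had an unadjusted p of 0.05 or below, against 5.06% of all probes. At 129 days, the only age found in both groups, CAPN3 A_70_P039501 was 7.80 on hypoxia replicate 3 and 8.47 on normoxia replicate 3, and CAST A_70_P056216 was 12.21 and 12.55. These arrays also differed in sex and slide, the first being of a male on slide 1 and the second of a female on slide 2.

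With the median signal of the array in the model, the differences were -0.45 (SE 0.38) for CAPN3 A_70_P039501, -0.26 (SE 0.26) for A_70_P039502 and -0.27 (SE 0.25) for CAST A_70_P056216. The brightness coefficients of the 2 CAPN3 probes had an unadjusted limma p below 0.05 (2.41 per log2 unit of array signal, SE 0.86, unadjusted p = 0.0224, and 1.56, SE 0.58, unadjusted p = 0.027), against 5.42% of all probes, and neither passed after adjustment (adjusted p = 0.912 each). Over the 8 arrays, deviations from the group means gave r = 0.71 for A_70_P039501 with brightness (n = 8, exact permutation test, two-sided, p = 0.0642, adjusted p = 0.257 over 8 relations; rho = 0.76, p = 0.0521, adjusted p = 0.208; r = 0.85 without the outermost arrays, hypoxia replicate 4 and normoxia replicate 2). For CAST A_70_P056216 the values were r = 0.61 (n = 8, exact permutation test, two-sided, p = 0.186, adjusted p = 0.496; rho = 0.74, p = 0.111, adjusted p = 0.238; r = 0.95 without the same arrays). CAPN3 A_70_P039502 with brightness had r = 0.72 (n = 8, exact permutation test, two-sided, p = 0.0469, adjusted p = 0.257). Its rho was 0.81 (same test, p = 0.0139, adjusted p = 0.111), and r was 0.73 without the same arrays. CAST A_70_P039571 had r = 0.10 (same test, p = 0.833, adjusted p = 0.833). Since the groups do not overlap in brightness, brightness and hypoxia cannot be told apart here.

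**Figure D4:**
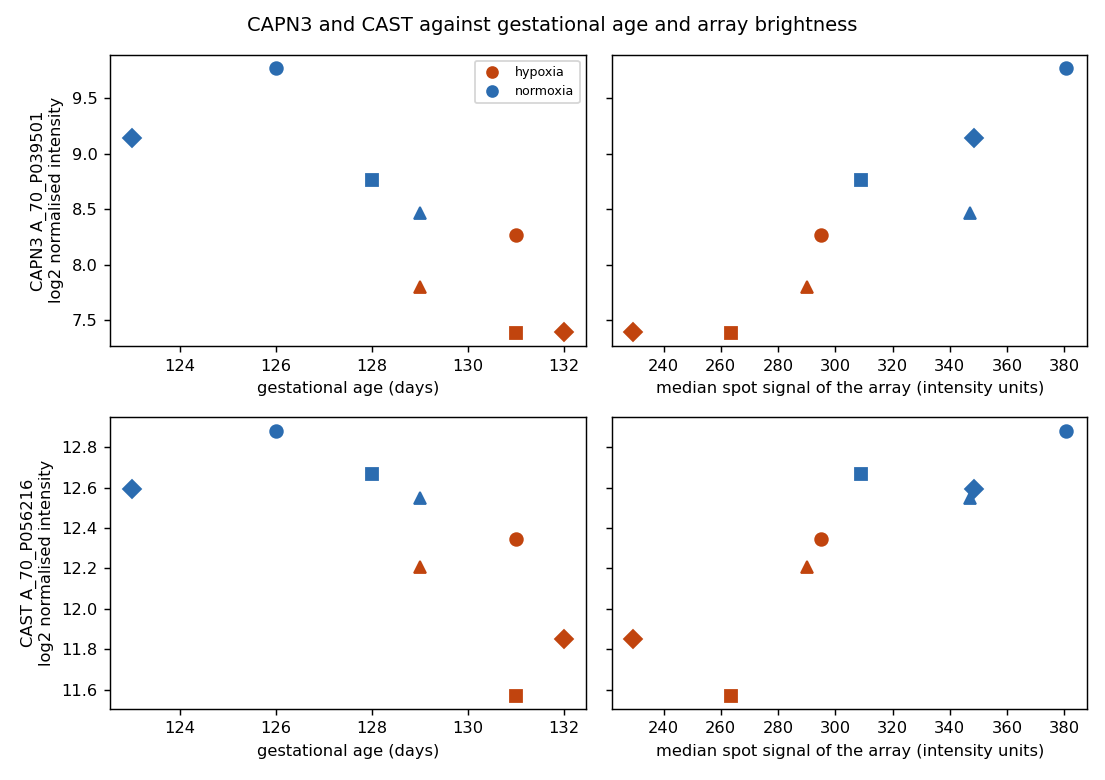
Normalized intensity (log2 scale, y axes) of CAPN3 A_70_P039501 and CAST A_70_P056216 against gestational age in days (left) and the median spot signal of the array in intensity units (right). Points are arrays, colour is the group and shape the replicate number (circle 1, square 2, triangle 3, diamond 4). The groups meet in age only at 129 days and are separate in brightness, with hypoxia at 229.5 to 294.9 and normoxia at 309.1 to 380.5.

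**Figure D5:**
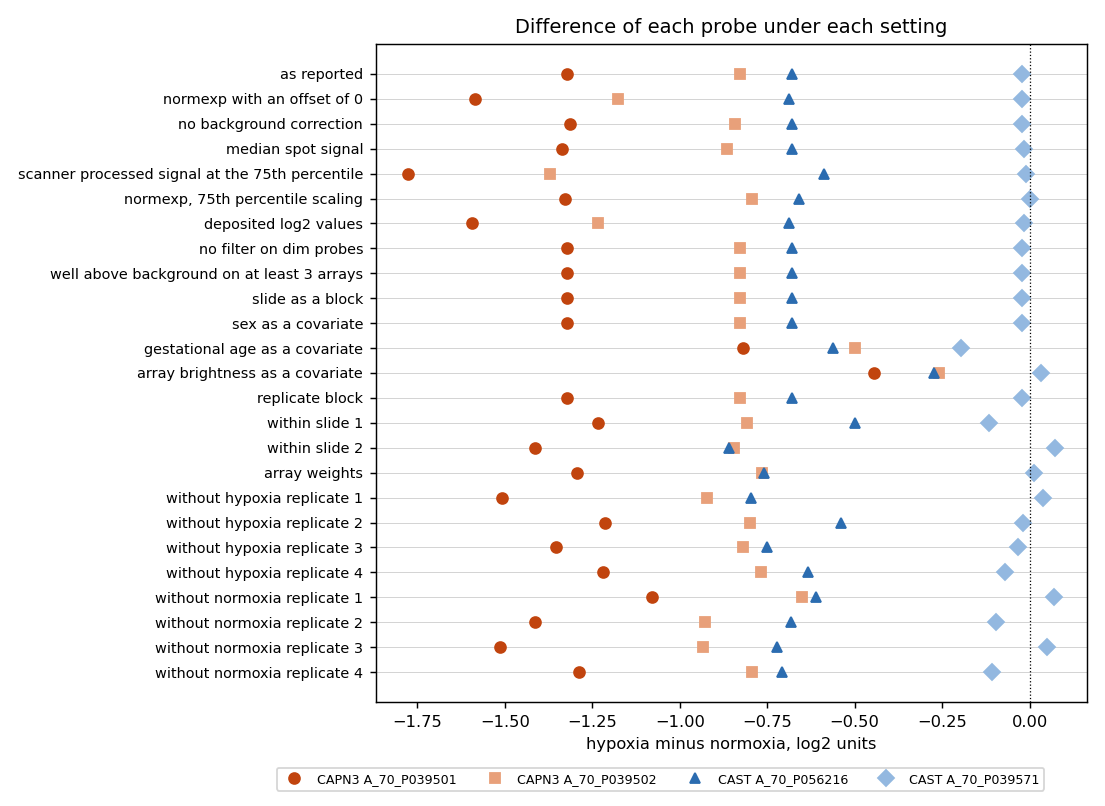
Hypoxia minus normoxia in log2 units (x axis) of the 4 member probes under each setting (y axis), with the reported value at the top. Both CAPN3 probes and CAST A_70_P056216 lie below 0 under every setting shown, nearest to 0 with array brightness as a covariate, and CAST A_70_P039571 lies between -0.20 and 0.07. The genes were picked for this sign. Leaving out an array or taking a single slide could not change it for the probes whose groups did not overlap.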

How the data were processed

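The authors deposited, for each array, the spot intensities that Agilent Feature Extraction 10.1.1.1 read from a 1-colour Cy3 scan, and a table of log2 values from their own limma processing, with dim probes removed. From the mean spot intensity, R 4.3.3 and limma 3.58.1 were used here for normexp correction with an offset of 50, quantile normalization and averaging of spots of a probe, without control and outlier spots. The limma model was fitted over all 13036 retained probes, with calls at the study's threshold, an unadjusted p of 0.05 or below, and Benjamini-Hochberg adjustment over all probes. Tested on simulated data for 13014 probes, 97% of probes changed by 0.5 log2 units were called and 4.84% of those unchanged. This share does not carry over to probes with a wide spread, such as that of HBB, which differed by 0.62 (SE 0.51) without a call. The members and the gene lists were chosen with earlier results of these data known. A probe of each list gene was matched by symbol or RefSeq accession, and the brightest was used. Only 1210 of the 15008 probes on the array could be paired with a gene name. Genes named are all calpain system probes, at most 5 called members per list, the defining muscle and pituitary markers, and the 5 named genes most like each member. VIM, GFAP, BAX, CTSB, FBXO32, MYLPF and HBB, named beside their lists without being called, were chosen after their values were seen. Slide, sex, gestational age, array brightness, replicate number, other corrections and single arrays were varied, and brightness as a tested term was added after the data were seen. Protein and genome sequences were not used here, so the planned translated match of the probes was not run. The number of arrays limits the precision.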

Additional observations from a re-analysis of the deposited data

How the results depend on the processing

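Both CAPN3 probes and CAST A_70_P056216 stayed below 0 under all 24 alternatives, and CAST A_70_P039571 was below 0 under 17 of them. Many of these alternatives could not change the sign of the first-named probes, which were picked for it. Their groups did not overlap, so leaving out an array or taking a single slide had to give a negative difference. The other filters and the slide, sex and replicate terms left the difference itself unchanged. Most of the movement came with array brightness as a covariate, when the difference was -0.45 and -0.26 for the CAPN3 probes and -0.27 for CAST A_70_P056216, the difference between the probes was -0.19 for CAPN3 and -0.31 for CAST, and 1 of the 6 other calpain probes was called (CAPN1 A_70_P027806, -0.32, limma unadjusted p = 0.0346). With gestational age the difference between the CAST probes was -0.37. CAPN3 A_70_P039502 was -1.37 with the scanner's processed signal and -1.23 in the deposited values. Within slide 1 and slide 2, CAST A_70_P056216 was -0.50 and -0.86, and the difference between the CAST probes -0.39 and -0.93. Without 1 array, the differences ranged from -1.51 to -1.08 (A_70_P039501), -0.93 to -0.65 (A_70_P039502), -0.80 to -0.54 (A_70_P056216) and -0.11 to 0.07 (A_70_P039571), those between probes from -0.58 to -0.41 (CAPN3) and -0.84 to -0.52 (CAST), and the calls of other calpain probes were 0. The 2 member probes with an unadjusted p of 0.05 or below for slide became 1 with the processed signal, without a filter and with array weights, and 1 to 3 without 1 array, and for gestational age 0 to 1 were found without 1 array. Replicate numbers did not pair the arrays, since deviations of same-numbered arrays correlated at -0.10 to 0.12 and only replicate 3 matched its own number best. With the replicate block the differences were the same (-1.32, SE 0.18, for A_70_P039501, and -0.68, SE 0.13, for A_70_P056216) and 0 other calpain probes were called. The cause of these movements was not tested.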

Other observations

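Likeness to the members was described by the correlation of deviations from the group means over the 8 arrays, which share hybridization and scanning by slide, with no test. For CAPN3 A_70_P039501 the other CAPN3 probe ranked 16 of the other 13033 probes with a value, of which 101 had r over 0.9. Among named genes the closest were LPL, a lipase of the capillary wall (r = 0.93), ATP5MC2, a subunit of the mitochondrial ATP synthase (0.93), GJB2, a gap junction protein (0.93), TLR6, a receptor of innate immunity (0.92), and CLN6, a protein of the endoplasmic reticulum (0.91). For CAST A_70_P056216 they were NRF1 (0.91), GJB2 (0.91), CLN6 (0.91), MCP-3, a chemokine (0.89), and CD3E, a chain of the T-cell receptor complex (0.88), and the other CAST probe ranked 7066. GJB2 and CLN6 stood in both lists, each by the same probe. A gene is given by its probe with the highest r, from 5 retained probes for GJB2 and 2 for CLN6. The r of the other probes of these genes is not given here. Between the groups LPL differed by 0.04 (SE 0.08), GJB2 by 0.42 (SE 0.42), CLN6 by -0.10 (SE 0.07), ATP5MC2 by -0.36 (SE 0.07), TLR6 by -0.20 (SE 0.15), NRF1 by -0.02 (SE 0.08), MCP-3 by -0.13 (SE 0.10) and CD3E by -0.46 (SE 0.25).

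Of 20 groups of 4 arrays, from 10 calpain system probes, 0 had an outlying array by Dixon's test, and 0 of 20 interactions with slide or sex had a limma adjusted p under 0.05 (the lowest was 0.697, and CAPN3 A_70_P039501 with sex had an unadjusted p of 0.0218).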
